A study of Homo sapiens with 10 samples.

Results

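WA-68 at 96 h against the DMSO vehicle is the longest exposure of a time course in HS-SY-II cells, a human line established from a synovial sarcoma, and it takes 4 of the 10 RNA-seq libraries of the series. Its members are the libraries labelled 96 h and DMSO, 2 biological replicates each. The tested cells received 100 nM WA-68, a PROTAC (a bifunctional small molecule that brings a protein to an E3 ubiquitin ligase) directed at BRD9, and their controls received DMSO, with no harvest time given for DMSO. The other 6 libraries are WA-68 at 12, 24 and 48 h and enter as the earlier exposures and as part of the shared estimate of spread. All cells are 1 line in DMEM with 10% FBS, the labels do not say how the replicates were separated, and protein was not analysed here.

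BRD9 is a bromodomain protein that reads acetylated lysines and belongs to the non-canonical BAF complex (ncBAF), a form of the SWI/SNF chromatin remodeller that also holds GLTSCR1 or its paralog (gene symbols BICRA and BICRAL) and SS18. In synovial sarcoma a translocation joins SS18 to an SSX gene. The fusion protein enters BAF complexes and holds them at regions marked by Polycomb, where it keeps developmental genes on, and cells of this tumour are known to depend on BRD9.

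The total of gene counts was 10401147 and 7349744 in the 96 h libraries and 13200051 and 8830910 in DMSO, within a range of 7349744 to 13200051 over the series. Levels are given as CPM, counts scaled to library size with a TMM factor for each library. Replicate 2 of 96 h and replicate 2 of DMSO had scores of -26.0 and -24.2 on principal component 2 of all 10 libraries, while the other 8 lay between -0.71 and 14.4. The log2 difference of replicate 2 from replicate 1 went with transcript GC content across genes, with a Spearman correlation of 0.289 at 96 h and 0.571 in DMSO. Mitochondrial transcripts took 7.38% and 10.9% of counts in replicates 1 and 2 of 96 h, against 7.81% and 8.12% in DMSO. Of 12 leukocyte markers none had enough counts to be tested, with a sum of 0.096 and 0.136 CPM at 96 h and 0.53 and 0.34 CPM in DMSO. Of 10 endothelial markers 1 was tested, the ETS factor ERG, at 19.9 and 18.4 CPM at 96 h and 19.97 and 21.4 CPM in DMSO.

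After 96 h of WA-68 the transcripts of growth and biosynthesis were lower: MYC, ribosomal proteins, ribosome assembly factors, glycolytic enzymes, chaperonins and histones. The largest rises included the collagen COL5A3, the neurotrophin receptor NGFR, MATN2 and MUC6, and smaller rises included axon guidance genes and several growth factors and their receptors. Of 16382 genes tested, edgeR's quasi-likelihood test called 1006 higher in 96 h cells and 1123 lower, relative to DMSO, at an adjusted p under 0.05, which is 13% of those tested, 6.14% higher and 6.86% lower. At least 2-fold changes were 210 of the rises (1.28% of genes tested) and 94 of the falls (0.574%), and most changes were therefore smaller than 2-fold. Higher genes made up 47.3% of those called, and 60.2% when libraries were scaled by size alone, a setting with 1228 higher and 812 lower genes. The median log2 fold change over all genes tested was -0.0083, and 0.041 with library size only. In bulk RNA a change in the share of cells with a transcript and a change in its amount per cell cannot be told apart. With no harvest time given for DMSO, WA-68 exposure and time in culture cannot be told apart either.

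Because both replicate 2 libraries stood apart, the difference was also taken within each replicate number. The sign was the same in both pairs for 2128 of the 2129 called genes, a share the call itself favours, and for 11238 of all tested genes, or 68.6%. Across all tested genes the differences of the 2 pairs had a Pearson correlation of 0.487 and a Spearman correlation of 0.477, as a description in which genes are not independent. In 2121 called genes both 96 h libraries lay beyond both DMSO libraries. Without replicate 2 of both groups, a setting chosen after the GC trend was known, 1668 of the 2129 genes (78.3%) were called again in the same direction, with the lone library of each group assumed to vary like the other groups. With an offset per library for GC content 2126 of them were called again. Fits that left out each of the 10 libraries in turn all kept 825 of the calls, or 38.8%.

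**Figure D1:**
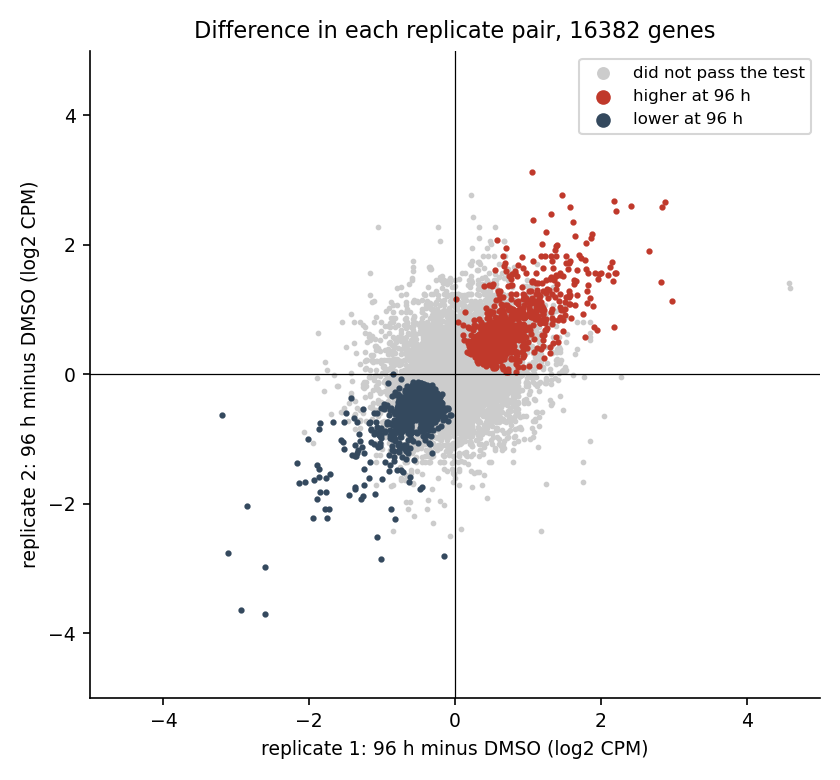
Each point is 1 of 16382 genes, placed by its log2 CPM difference of 96 h from DMSO in replicate 1 (x axis) and in replicate 2 (y axis); red points were called higher at 96 h, dark blue points lower, and grey points did not pass the edgeR test. Called genes lie in the upper right and lower left quadrants, and 2128 of 2129 have the same sign in both pairs; the grey pair at the far right is MT-RNR1 and MT-RNR2.

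Both grey outliers at the right of that plot are ribosomal RNAs of the mitochondrion, which were looked up after their values were seen. MT-RNR1 had 277 and 173 CPM at 96 h, against 11.3 and 68.4 CPM in DMSO. MT-RNR2 had 472 and 260 CPM at 96 h, against 19.5 and 97.6 CPM in DMSO. Neither passed the edgeR test (adjusted p = 0.0967 for MT-RNR1 and 0.0785 for MT-RNR2), though both passed in 5 of the 10 fits without 1 library. The 48 h libraries differed from each other far more, with 199 and 4.93 CPM for MT-RNR1 in its replicates.

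BRD9 (ENSG00000028310, GRCh38 chr5:850291-892824) was read first, as the gene of the targeted protein. Its transcript had 88.2 and 89.2 CPM at 96 h, against 100.1 and 108 CPM in DMSO. Both 96 h libraries were below both DMSO libraries, and the log2 fold change was -0.23 (SE 0.0887). It did not pass the edgeR test (adjusted p = 0.0935), but passed with the GC offset (log2 fold change -0.24, adjusted p = 0.0130). BICRAL (chr6:42746958-42868560), a scaffold of ncBAF, had 103 and 112 CPM at 96 h, against 78.7 and 78.4 CPM in DMSO, and rose by 0.46 (SE 0.0909, adjusted p = 0.00126, edgeR). This call held in all 10 fits without 1 library. Its paralog BICRA had a log2 fold change of 0.15 (adjusted p = 0.475), or -0.038 without replicate 1 of DMSO (0.899), SS18 of 0.11 (0.466) and SSX1 of 0.12 (0.497), all not passing. Reads of the fusion transcript count towards SS18 and an SSX gene and cannot be separated here, and SSX genes are near-identical copies.

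Of 14 ncBAF subunits tested BICRAL rose and SMARCC1, a core scaffold of all BAF complexes, fell (median log2 fold change -0.017, against -0.0083 over all genes). Among all genes tested 13% were called, 6.14% higher and 6.86% lower. With the GC offset 1 of the 14 was called higher and 4 lower, in a setting with 1592 higher and 1665 lower genes. SMARCC1 had 242 and 254 CPM at 96 h and 325 and 298 CPM in DMSO (-0.33 on the log2 scale, SE 0.0867, adjusted p = 0.0122, edgeR). The SMARCC1 call was lost without replicate 1 of either group (largest adjusted p = 0.0788). Of 13 subunits of canonical BAF and PBAF, SMARCD3 rose (log2 fold change 0.29) and SMARCD2 fell (-0.32), with the call lost in 9 and 6 of the 10 fits without 1 library, each 96 h library among them. Among 26 Polycomb subunits 4 rose and 3 fell, with a median of -0.10. PCGF5, of the variant Polycomb repressive complex 1, had 40.3 and 32.8 CPM at 96 h and 67.7 and 50.7 CPM in DMSO (-0.69 on the log2 scale, SE 0.126, adjusted p = 0.00049). RYBP, of the same complex, had 164 and 169 CPM at 96 h and 135 and 116 CPM in DMSO (0.41, SE 0.0927, adjusted p = 0.00404). Both groups of libraries were apart for each of these genes. Of 9 BET protein and P-TEFb genes edgeR and DESeq2 called 0 and limma-voom 1, and 2 had an unadjusted p under 0.05 in edgeR. The GC offset and scaling by library size only each gave 2 higher genes in this list.

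The largest rises by fold, among called genes with a mean of at least 5 CPM, began with COL5A3 (chr19:9959561-10010471), a chain of the fibrillar collagen V. It had 10.5 and 10.1 CPM at 96 h, against 1.24 and 1.42 CPM in DMSO (7.78-fold, log2 fold change 2.96, SE 0.295, adjusted p = 3.97e-07, edgeR). PRR36 (chr19:7868719-7874379), which encodes a proline-rich protein, had 15.3 and 23.2 CPM at 96 h, against 3.19 and 3.43 CPM in DMSO (5.71-fold, adjusted p = 2.05e-07). NGFR (chr17:49495293-49515017), the low-affinity neurotrophin receptor p75 and a marker of neural crest cells, had 11.5 and 11.9 CPM at 96 h, against 2.33 and 1.89 CPM in DMSO (5.41-fold, adjusted p = 6.52e-07). In all 3 genes the groups lay far apart, and PRR36 varied most between the 96 h libraries.

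MUC6 (chr11:1012821-1036706), a gel-forming mucin of gastric glands, was the rise with the smallest p among the leading genes. It had 715 and 906 CPM at 96 h, against 206 and 222 CPM in DMSO (3.79-fold, log2 fold change 1.92, SE 0.111, adjusted p = 5.56e-11, edgeR). MATN2 (chr8:97868840-98036716), a matrilin of the extracellular matrix, had 46.0 and 42.7 CPM at 96 h and 12.5 and 9.69 CPM in DMSO (3.93-fold, adjusted p = 1.35e-08). MATN2 overlaps RPL30 on the opposite strand, and the strand setting of the counting is not given in the sources used here. RPL30 itself fell by 0.44 on the log2 scale. CYFIP2, a subunit of the actin regulating WAVE complex, had 7.12 and 9.26 CPM at 96 h and 1.79 and 1.89 CPM in DMSO (4.38-fold, adjusted p = 8.91e-06).

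Other leading rises belonged to membrane, cytoskeletal and neuronal genes. MEGF11, a transmembrane protein that spaces neurons in the mouse retina, rose 3.74-fold (adjusted p = 3.35e-05), and DENND3, an activator of a Rab GTPase, rose 3.66-fold (1.90e-05). BRINP2, a neural protein induced by retinoic acid, had 36.7 and 36.2 CPM at 96 h and 10.96 and 10.3 CPM in DMSO. Its replicates lay close together, and the rise was 3.42-fold (adjusted p = 1.78e-09). MYH11, the smooth muscle myosin heavy chain, had 27.9 and 30.9 CPM at 96 h and 6.99 and 10.99 CPM in DMSO (3.36-fold, adjusted p = 1.20e-07). KIAA0319, a membrane protein linked to reading disability, rose 3.32-fold (adjusted p = 2.44e-05). MYH11 overlaps NDE1, and DENND3 overlaps DENND3-AS1, each on the opposite strand.

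**Figure D2:**
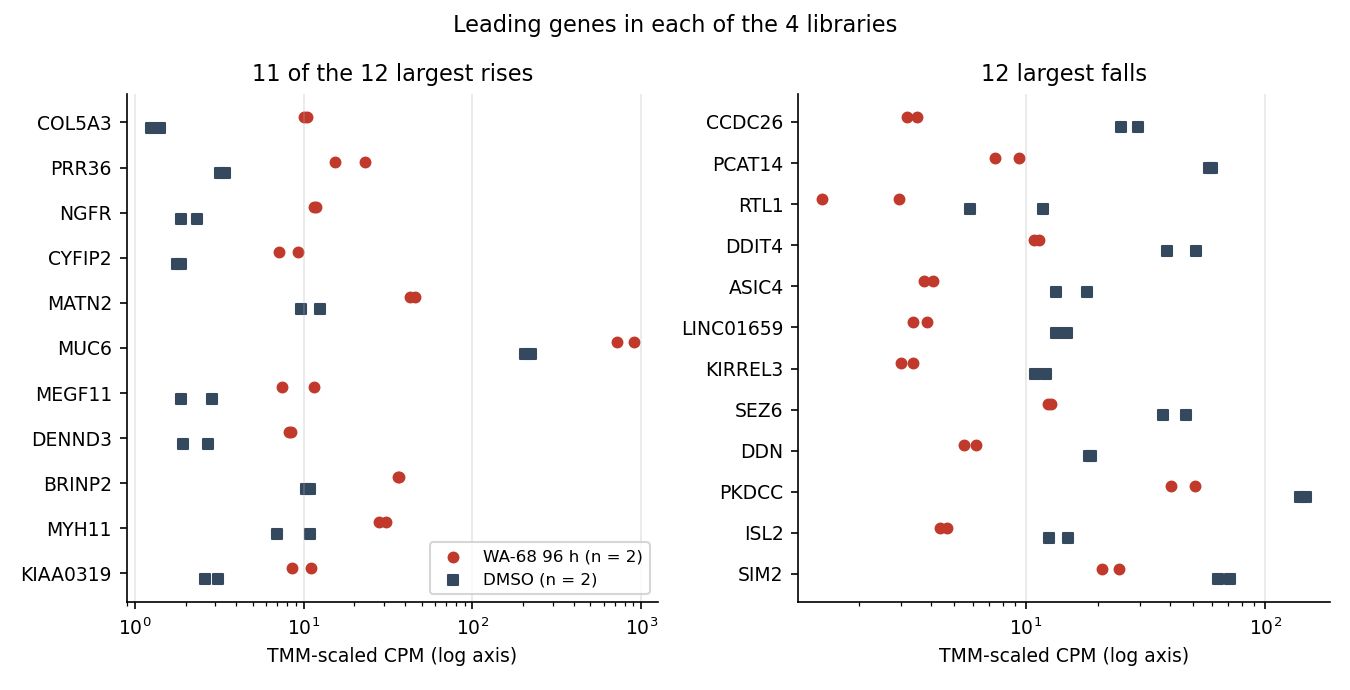
TMM-scaled CPM (log axis) of 11 of the 12 largest rises (left) and the 12 largest falls (right) in each library, with WA-68 96 h as red circles and DMSO as dark blue squares, n = 2 each. In all 23 genes both 96 h libraries lie on the same side of both DMSO libraries, which was a condition of the choice; COL5A3 shows 10.5 and 10.1 CPM at 96 h against 1.24 and 1.42 CPM in DMSO, and CCDC26 3.18 and 3.51 against 29.3 and 25.1.

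The 2 largest falls were non-coding RNAs. CCDC26 (chr8:128634199-129683679), a long non-coding RNA on the arm that carries MYC, had 3.18 and 3.51 CPM at 96 h, against 29.3 and 25.1 CPM in DMSO (8.21-fold lower, log2 fold change -3.04, SE 0.194, adjusted p = 2.90e-10, edgeR). PCAT14 (chr22:23536881-23547797), a long non-coding RNA first described in prostate cancer, had 9.36 and 7.44 CPM at 96 h, against 58.0 and 60.0 CPM in DMSO (6.89-fold lower, adjusted p = 5.38e-12). LINC01659 (chr22:23433564-23435071), its neighbour on chromosome 22, had 3.84 and 3.37 CPM at 96 h and 13.3 and 14.9 CPM in DMSO (log2 fold change -1.94, adjusted p = 1.03e-06). The 96 h libraries lay far below DMSO for all 3.

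Of 20 abundant long non-coding and snoRNA host transcripts 11 fell and 1 rose, with a median of -0.42, and the list had been put together with these 3 known to fall. SNHG5, a snoRNA host, had 63.8 and 55.1 CPM at 96 h and 113 and 84.9 CPM in DMSO (-0.73 on the log2 scale, SE 0.116, adjusted p = 0.000119). PVT1, next to MYC on chromosome 8, had 79.1 and 87.4 CPM at 96 h and 136 and 124 CPM in DMSO (-0.65, SE 0.106, adjusted p = 0.000185). The 1 that rose was LNC-LBCS, at 10.2 and 12.1 CPM at 96 h and 5.207 and 5.201 CPM in DMSO (log2 fold change 1.08, adjusted p = 0.000293). LNC-LBCS and PVT1 were named after their values were seen. Over all long non-coding genes, 71 of 2086 were called higher and 58 lower. Both are smaller shares than the 6.14% higher and 6.86% lower over all genes tested.

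DDIT4 (chr10:72273920-72276036), a stress-induced inhibitor of mTORC1, had 11.3 and 10.8 CPM at 96 h, against 38.9 and 51.2 CPM in DMSO (4.02-fold lower, adjusted p = 1.21e-08, edgeR). The remaining leading falls included several neuronal and developmental genes. RTL1, an imprinted gene derived from a retrotransposon, fell 4.13-fold (adjusted p = 0.000203), though its libraries spread widely, at 1.40 and 2.95 CPM at 96 h and 5.83 and 11.8 CPM in DMSO. ASIC4, of the acid-sensing ion channel family, fell 3.97-fold, and KIRREL3, a synaptic adhesion molecule, 3.66-fold (adjusted p = 6.52e-07 and 2.57e-06). SEZ6, a neuronal membrane protein, had 12.7 and 12.35 CPM at 96 h and 46.9 and 37.5 CPM in DMSO, and DDN, a protein of dendrites and podocytes, fell 3.19-fold. PKDCC, a secreted tyrosine kinase of bone and limb growth, had 50.75 and 40.55 CPM at 96 h and 139.7 and 148 CPM in DMSO (3.12-fold lower, adjusted p = 2.90e-10). KIRREL3 overlaps ST3GAL4 and DDN overlaps DDN-AS1, both on the opposite strand. All 24 leading genes kept their call in each of the 10 fits without 1 library, with the GC offset, and without replicate 2 of both groups.

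MYC and the genes of ribosome production were lower together. MYC (chr8:127735434-127741434), the transcription factor that drives growth and ribosome synthesis, had 109.9 and 142 CPM at 96 h, against 281 and 330 CPM in DMSO (2.43-fold lower, log2 fold change -1.28, SE 0.118, adjusted p = 1.34e-07, edgeR). Of 32 genes of MYC and ribosome biogenesis 23 fell, with a median of -0.43, and 17 of the 23 kept their call without any 1 library. MYBBP1A, a nucleolar MYB-binding protein, had 109.9 and 104.5 CPM at 96 h and 152 and 176 CPM in DMSO (-0.61 on the log2 scale, SE 0.0948). BOP1, a factor of large-subunit assembly, had 94.9 and 91.5 CPM at 96 h and 130 and 149 CPM in DMSO (-0.58, SE 0.099, adjusted p = 0.000284). Groups did not overlap for any of these. NOLC1, NCL, FBL, GNL3, NPM1 and DKC1, all nucleolar proteins, fell by 0.42 to 0.53 on the log2 scale. MXI1, an antagonist of MYC, fell as well (-0.39, adjusted p = 0.00906), a call lost without replicate 1 of DMSO or replicate 2 of 96 h (largest adjusted p = 0.0639), and was named after its values were seen.

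Cytosolic ribosomal protein genes gave the broadest fall of any list examined. Of 77 tested 71 fell, with a median log2 fold change of -0.51 and a range over all 77 of -0.76 to -0.11. Their summed level was 28582 and 31430 CPM at 96 h, against 42834 and 42239 CPM in DMSO. In replicate 1 all 77 were below DMSO and in replicate 2 76 were, with pair medians of -0.58 and -0.43. RPS18, a protein of the small subunit, had 596 and 606 CPM at 96 h and 1040 and 993 CPM in DMSO (-0.76 on the log2 scale, SE 0.0788, adjusted p = 6.52e-07, edgeR). RPL13A, of the large subunit, had 826 and 798 CPM at 96 h and 1302 and 1247 CPM in DMSO (-0.65, SE 0.0792). The count was 69 with library size only and 77 without replicate 2 of both groups. These genes have many processed pseudogenes, and the sources used here do not say how multiply mapped reads were treated, so single values are uncertain.

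Vertebrate ribosomal protein mRNAs are known for a terminal oligopyrimidine tract, which starts with C at the first transcribed base, goes on in C and T and lets mTORC1 control translation. To show that start in genes that fell, the RefSeq windows (GRCh38.p14) were read 20 bases before and 10 bases from the annotated start for 6 of the called genes. They are RPS18 (chr6:33272055-33272084, plus strand), RPL13A (chr19:49487588-49487617, plus), RPL31 (chr2:101002269-101002298, plus), RPS14 (chr5:150449730-150449759, minus), RPS23 (chr5:82278345-82278374, minus) and RPL7A (chr9:133348198-133348227, plus). Capitals mark the run of C and T that begins at the start site.
RPS18: gatatcgcgtcacttccgctCTCTCTTCCa
RPL13A: ccctgcgacaaaacctcctcCTTTTCCaag
RPL31: ctcccacaatccttcgcgctCTTCCTTTCC
RPS14: tcgctccgccccctcccactCTCTCTTTCC
RPS23: ctccttcctgcggtgcttctCTCTTTCgct
RPL7A: attacccacaattccctttcCTTTCTCTCT
A start at C followed by 4 bases that are each C or T, read on the transcribed strand only, was found in 41 of the 61 list members with a window (67.2%). Over all 10803 tested genes with a window it was found in 588 (5.44%). Of the 57 called members with a window 39 had it. This motif was chosen after the values were seen, and it describes the annotated start only.

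For the MYC list the E-box CACGTG, the core site of MYC with MAX, was looked for on both strands in the 300 bases of each window. It was present in 10 of 26 members with a window (38.5%) and in 1099 of 10803 genes (10.2%). Among 17 called members with a window 5 held it, a smaller share than in the list as a whole. LDHA, MYBBP1A and FBL are shown because they fell and hold the motif, in capitals, in 100 bases at chr11:18394429-18394528 (plus strand), chr17:4555335-4555434 (minus) and chr19:39846330-39846429 (minus). This motif too was chosen after the values were seen.
LDHA: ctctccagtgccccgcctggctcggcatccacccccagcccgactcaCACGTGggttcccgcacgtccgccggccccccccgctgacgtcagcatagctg
MYBBP1A: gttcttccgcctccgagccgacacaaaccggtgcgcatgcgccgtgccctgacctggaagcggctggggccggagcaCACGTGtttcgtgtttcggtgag
FBL: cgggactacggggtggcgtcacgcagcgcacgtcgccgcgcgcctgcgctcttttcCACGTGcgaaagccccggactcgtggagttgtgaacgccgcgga
In LDHA the motif begins 87 bases before the annotated start, and in MYBBP1A and FBL at the 28th and 7th transcribed base.

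Glycolysis and hypoxia-response genes fell in 20 of 29 cases, with a median of -0.53, the lowest of all lists in the plot of gene lists. ENO1, the enolase of glycolysis, had 330 and 347 CPM at 96 h and 591 and 682 CPM in DMSO (-0.91 on the log2 scale, SE 0.0901, adjusted p = 3.48e-07, edgeR). LDHA, lactate dehydrogenase, had 297 and 295 CPM at 96 h and 518 and 511 CPM in DMSO (-0.80, SE 0.0841). PGK1, phosphoglycerate kinase, had 264 and 262 CPM at 96 h and 439 and 480.5 CPM in DMSO (-0.81, SE 0.0841). Replicates of these enzymes were close to each other and the groups did not overlap. HK2, the hexokinase of tumour cells, had 22.8 and 24.7 CPM at 96 h and 47.4 and 54.1 CPM in DMSO (-1.10, SE 0.136, adjusted p = 7.32e-06), and the glucose transporter SLC2A1 fell by 1.01 (SE 0.155). The 1 gene that rose was NDRG1, a stress-responsive gene, with 46.4 and 51.1 CPM at 96 h and 26.1 and 30.0 CPM in DMSO (0.80, SE 0.11, adjusted p = 2.55e-05). HK2, SLC2A1 and NDRG1 were named after their values were seen.

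Lipid synthesis moved less evenly, with 6 of 30 cholesterol and fatty acid genes lower and 1 higher (median -0.16). SCD, the stearoyl-CoA desaturase, had 1244 and 1165 CPM at 96 h and 2314 and 2222 CPM in DMSO (-0.91 on the log2 scale, SE 0.0943, adjusted p = 6.52e-07, edgeR). FADS2, a desaturase of long-chain fatty acids, fell by 0.63 (SE 0.0954), and CYP51A1, of cholesterol synthesis, by 0.96 (SE 0.178). TM7SF2, a sterol reductase of the same pathway, went the other way, with 21.9 and 20.8 CPM at 96 h and 8.86 and 8.27 CPM in DMSO (1.31, SE 0.161, adjusted p = 6.49e-06). FADS2 overlaps FADS1 and FEN1, and TM7SF2 overlaps VPS51.

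Protein folding genes fell in 11 of 19 cases (median -0.32), 7 of which held in every fit without 1 library. HSPD1, the mitochondrial chaperonin HSP60, had 522 and 476 CPM at 96 h and 776 and 684 CPM in DMSO (-0.55 on the log2 scale, SE 0.0873, adjusted p = 0.000126, edgeR). The ring subunits CCT8, CCT2 and CCT4 of the cytosolic chaperonin fell by 0.47, 0.47 and 0.42. Of 23 genes of the integrated stress and unfolded protein responses 3 fell and 1 rose (median -0.031). The 3 were serine and glycine enzymes: PSAT1 (-0.56, SE 0.106), PHGDH (-0.52, SE 0.11) and SHMT2 (-0.41, SE 0.104). The 1 that rose was the amino acid transporter SLC7A5 (0.40, SE 0.105). SHMT2 was lost without replicate 2 of DMSO or replicate 1 of 96 h (largest adjusted p = 0.129), and SLC7A5 without replicate 1 of DMSO or replicate 2 of 96 h (0.128). Of 35 nuclear genes of the respiratory chain 3 fell (median -0.22), the ATP synthase subunits ATP5F1B and ATP5F1A and COX6C of cytochrome c oxidase. Among all genes tested 6.14% were higher and 6.86% lower. The COX6C call was lost in 6 of the 10 fits, those without replicate 1 of DMSO and replicate 2 of 96 h among them (largest adjusted p = 0.297).

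The 13 mitochondrially encoded mRNAs went in different directions in the 2 replicate pairs. In replicate 1 10 of them were below DMSO, and in replicate 2 12 were above it, with pair medians of -0.12 and 0.39. Together they had 71071 and 111930 CPM at 96 h, against 79980 and 84549 CPM in DMSO. edgeR called 3 higher (MT-ATP8, MT-ATP6, MT-ND5) and MT-ND2 lower, and each was lost without 2 of the 4 libraries. The rises were lost without replicate 2 of 96 h, MT-ATP6 and MT-ND5 also without replicate 1 of DMSO and MT-ATP8 without its replicate 2 (largest adjusted p = 0.615, 0.659 and 0.337). MT-ND2 was lost without replicate 1 of either group (0.221). Without replicate 2 of both groups 6 were called lower. The direction of this list therefore rests on replicate 2 of 96 h, the library with 10.9% of its counts from mitochondrial transcripts.

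Cell cycle genes were slightly lower. Of 41 genes of the G1/S transition and DNA replication 13 fell (median -0.21), and of 40 genes of G2/M and mitosis 10 fell (median -0.23). The changes were small, at most 1.54-fold in CDC25B, and in these lists the calls that held without any 1 library were 4 and 2. MCM2, a subunit of the replicative helicase, had 115 and 127 CPM at 96 h and 168 and 186 CPM in DMSO (-0.55 on the log2 scale, SE 0.0985, adjusted p = 0.000468, edgeR). CDC25B, the phosphatase that starts mitosis, had 161 and 173 CPM at 96 h and 241 and 272 CPM in DMSO (-0.62, SE 0.0956, adjusted p = 8.98e-05). AURKA, a mitotic kinase, had 81.7 and 79.99 CPM at 96 h and 103 and 104 CPM in DMSO (-0.36, SE 0.0898, adjusted p = 0.00893). With library size only the lists held 8 and 5 lower genes. Without replicate 1 of 96 h each held 6, without replicate 2 of 96 h the G1/S list held 8, and without replicate 2 of DMSO the G2/M list held 16.

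Many promoters of mitotic genes carry the cell cycle homology region, which binds the DREAM complex and holds these genes down outside the cycle. Its core TTTGAA, read on both strands of the 300 base RefSeq window, was present in 22 of 34 G2/M genes (64.7%) and in 9.66% of all 10803 genes. Of the 9 called genes with a window 5 held it, a smaller share than in the list as a whole. CCNB2 (cyclin B2), CDCA8 and CENPF (both of the centromere) are shown with the motif in capitals, at chr15:59105070-59105169, chr1:37692446-37692545 and chr1:214603145-214603244, all on the plus strand.
CCNB2: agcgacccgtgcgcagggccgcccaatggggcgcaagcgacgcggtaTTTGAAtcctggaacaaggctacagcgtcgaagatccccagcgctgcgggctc
CDCA8: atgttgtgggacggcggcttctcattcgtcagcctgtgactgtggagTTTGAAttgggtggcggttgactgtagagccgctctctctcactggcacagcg
CENPF: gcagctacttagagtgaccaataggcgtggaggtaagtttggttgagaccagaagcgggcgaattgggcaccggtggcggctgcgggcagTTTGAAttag
CCNB2 had 74.8 and 81.7 CPM at 96 h and 98.8 and 103 CPM in DMSO (-0.37 on the log2 scale, SE 0.094, adjusted p = 0.00960, edgeR). That call was lost without replicate 1 of 96 h (adjusted p = 0.115). CDCA8 and CENPF fell by 0.38 and 0.31 on the log2 scale, CDCA8 not without replicate 2 of DMSO or replicate 1 of 96 h (largest adjusted p = 0.196) and CENPF not without replicate 2 of 96 h (0.0978).

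Among cyclins and their inhibitors, CCND2, the D-type cyclin that drives entry into the cycle, had 266 and 267 CPM at 96 h, against 484 and 448 CPM in DMSO (1.75-fold lower, log2 fold change -0.81, SE 0.0837, adjusted p = 6.52e-07, edgeR). CDKN1A, the inhibitor p21, had 28.7 and 29.3 CPM at 96 h, against 18.1 and 18.7 CPM in DMSO (1.58-fold higher, SE of the log2 fold change 0.13, adjusted p = 0.00110). Replicates agree closely in both genes. Of 24 targets of p53 2 rose and 1 fell (median -0.038), beside 6.14% higher and 6.86% lower over all genes tested. CDKN1A and TIGAR were higher and CCNG1 lower, and of these CDKN1A kept its call without any 1 library. TIGAR was lost without replicate 1 of DMSO or either 96 h library (largest adjusted p = 0.0934), and CCNG1 without replicate 1 of DMSO, either 12 h library or replicate 2 of 96 h (0.414). Of 14 BCL2 family genes edgeR, DESeq2 and limma-voom each called 0, and 0 had an unadjusted p under 0.05. Their log2 fold changes ran from -0.30 to 0.46.

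Replication-dependent histones fell in 17 of 21 cases, with a median of -0.51, and 10 calls held in every fit without 1 library. Their mRNAs mostly end without a poly(A) tail, so a poly(A) library samples only a part of them, and they are members of families with near-identical coding sequences. H2AC13 had 99.0 and 97.8 CPM at 96 h and 151 and 176 CPM in DMSO (-0.73 on the log2 scale, SE 0.1, adjusted p = 2.43e-05, edgeR). H4C3 had 124 and 119 CPM at 96 h and 208 and 190 CPM in DMSO (-0.71, SE 0.0993). H1-3, a linker histone, had 165 and 197 CPM at 96 h and 317 and 276 CPM in DMSO (-0.72, SE 0.102). With replicate 1 of 96 h left out 10 members were called.

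**Figure D3:**
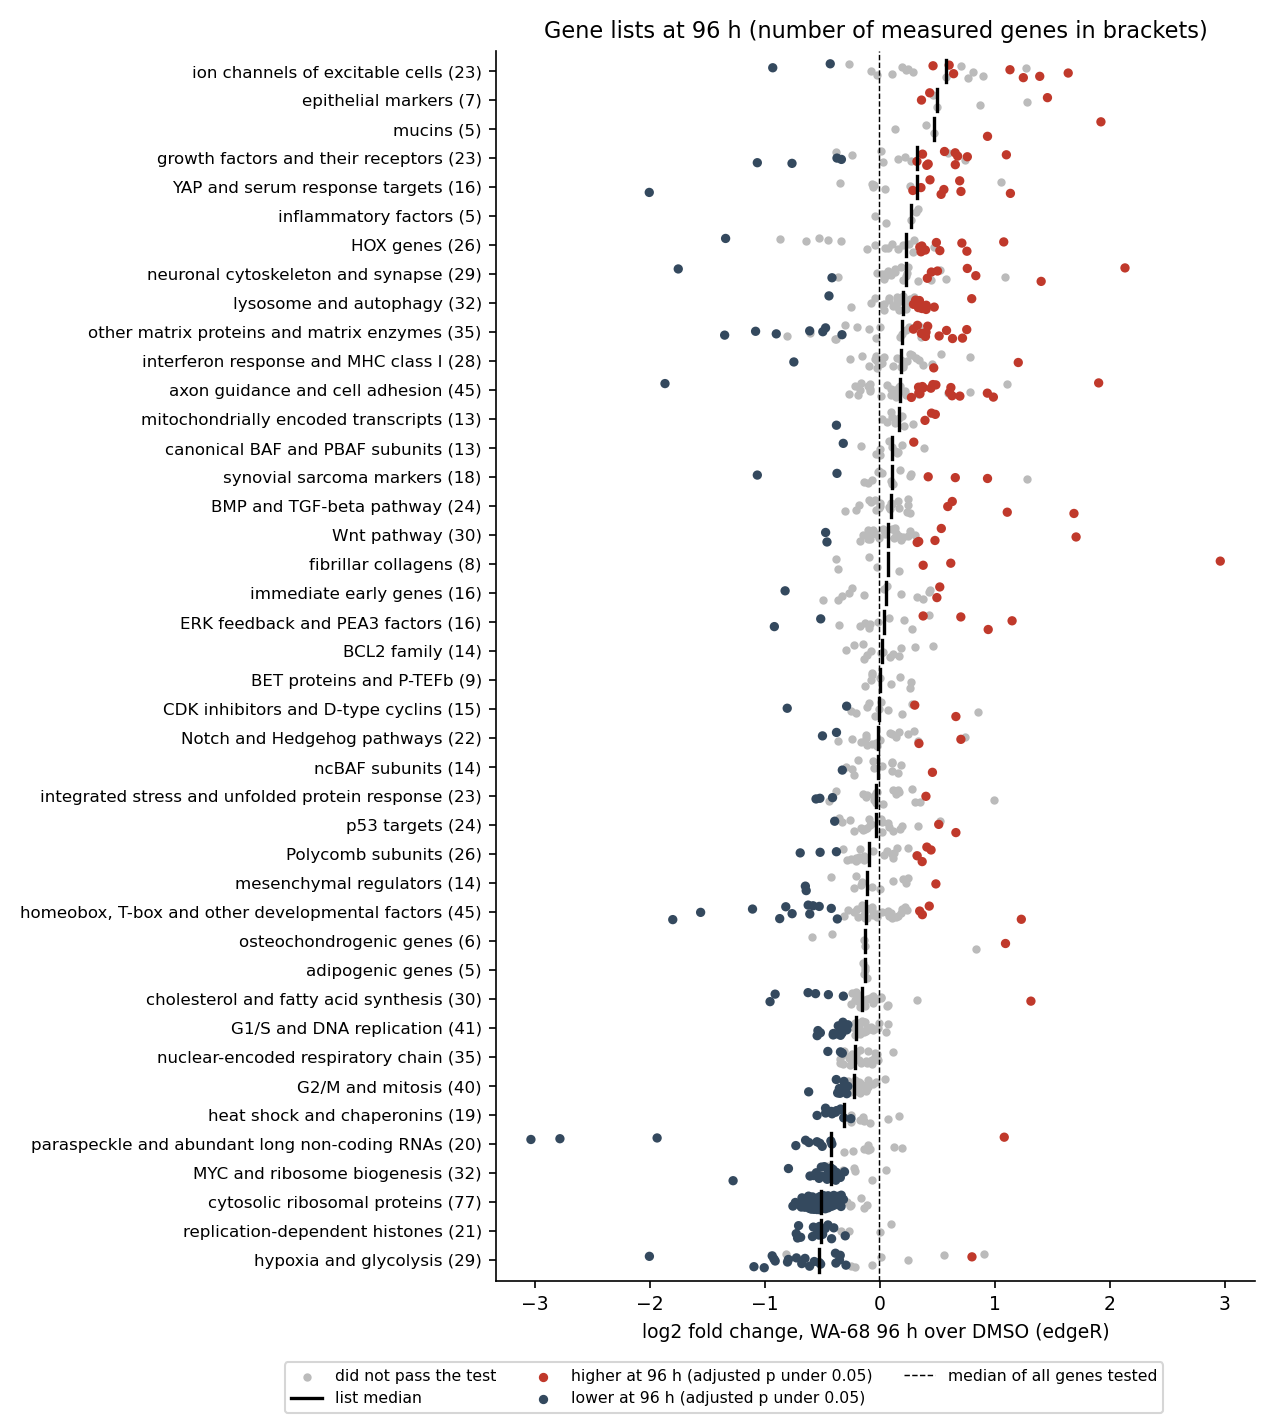
Log2 fold change of WA-68 96 h over DMSO for every measured gene of each list with at least 5 measured genes, with red points called higher, dark blue points called lower, grey points not passing the edgeR test, the black bar at the list median and the dashed line at the median of all genes tested (-0.0083). Hypoxia and glycolysis, histones, ribosomal proteins and ribosome biogenesis lie lowest, with medians of -0.53, -0.51, -0.51 and -0.43, and ion channels, epithelial markers and mucins highest, at 0.57, 0.49 and 0.47.

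Matrix genes changed in both directions. All 3 chains of collagen V rose among 8 fibrillar collagens (list median 0.070). COL5A2 had 73.8 and 69.2 CPM at 96 h and 45.2 and 48.6 CPM in DMSO (0.61 on the log2 scale, SE 0.0992, adjusted p = 0.000151, edgeR). COL5A1 had 493 and 489 CPM at 96 h and 359 and 398 CPM in DMSO (0.37, SE 0.0882, adjusted p = 0.00530), a call lost without replicate 1 of DMSO (adjusted p = 0.0524). Of 35 other matrix genes 11 rose and 7 fell (median 0.19). Basement membrane chains were among the rises. LAMB2, a laminin beta chain, had 161 and 145 CPM at 96 h and 80.5 and 102 CPM in DMSO (0.75, SE 0.105, adjusted p = 2.76e-05). LAMA5, a laminin alpha chain, had 1015 and 978 CPM at 96 h and 588 and 748 CPM in DMSO (0.58, SE 0.0951, adjusted p = 0.000191). COL4A5, of collagen IV, rose by 0.63 (SE 0.089). BGN, a small proteoglycan, had 10.3 and 16.3 CPM at 96 h and 29.9 and 36.5 CPM in DMSO (-1.35, SE 0.171, adjusted p = 9.90e-06). LAMA1, another laminin alpha chain named after its values were seen, fell by 0.61 (SE 0.107). Without replicate 2 of 96 h the 7 falls came to 3.

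Synovial sarcoma can be biphasic, with gland-like epithelial parts, and epithelial genes were examined for that reason. Of 17 epithelial markers 7 had enough counts to be tested, and of these 3 rose (median 0.49). All 7 had a positive fitted log2 fold change, from 0.36 to 1.46. OCLN, occludin of tight junctions, had 7.68 and 6.88 CPM at 96 h and 2.88 and 2.36 CPM in DMSO (1.46 on the log2 scale, SE 0.246, adjusted p = 0.000244, edgeR). TJP1, the junction scaffold ZO-1, had 620 and 682 CPM at 96 h and 519 and 494 CPM in DMSO (0.36, SE 0.0814, adjusted p = 0.00377). JUP, plakoglobin, rose by 0.43 (SE 0.125), lost without replicate 1 of DMSO or replicate 2 of 96 h (largest adjusted p = 0.280). Of 13 mucins 5 were tested, and of these MUC6 and MUC1 rose (median 0.47). MUC1 had 7.12 and 6.60 CPM at 96 h and 2.95 and 4.49 CPM in DMSO (0.93, SE 0.232, adjusted p = 0.00804), lost without replicate 1 of either group (largest adjusted p = 0.176). Among 14 mesenchymal regulators SNAI2, a repressor of epithelial genes, fell by 0.64 (SE 0.0974) and PRRX1, a limb mesenchyme factor, by 0.65 (SE 0.141), while CDH2, N-cadherin, rose by 0.49 (SE 0.0896).

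Receptors and ligands of growth factor signalling changed in 14 of 23 cases, 10 higher and 4 lower (median 0.32). PDGFRA, a receptor for platelet-derived growth factor, had 28.1 and 24.4 CPM at 96 h, against 52.7 and 58.5 CPM in DMSO (2.10-fold lower, log2 fold change -1.07, SE 0.109, adjusted p = 6.07e-07, edgeR). Its ligand PDGFA had 71.45 and 71.43 CPM at 96 h, against 46.2 and 44.6 CPM in DMSO (0.65, SE 0.109, adjusted p = 0.000223). FGFR2, a receptor kinase present in synovial sarcoma, had 218 and 236 CPM at 96 h and 139.6 and 149 CPM in DMSO (0.65, SE 0.0883, adjusted p = 2.00e-05). KIT, the stem cell factor receptor, had 74.4 and 71.4 CPM at 96 h and 44.4 and 47.3 CPM in DMSO (0.67, SE 0.0933). In these 4 genes the replicates lay close together and the groups were separate. The rises came to 6 without replicate 1 of DMSO. Downstream, 4 of 16 genes of ERK feedback and PEA3 factors rose and 2 fell (median 0.032). PHLDA1 (0.70, SE 0.0987) and DUSP4, a phosphatase of ERK (0.94, SE 0.18), rose, and DUSP9, another MAP kinase phosphatase, fell by 0.92 (SE 0.177).

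YAP and serum response targets rose in 8 of 16 cases and fell in 1 (median 0.32). AMOTL2, an angiomotin that restrains YAP, had 218 and 261 CPM at 96 h and 136 and 158 CPM in DMSO (0.70 on the log2 scale, SE 0.0993, adjusted p = 3.25e-05, edgeR). CCN2, connective tissue growth factor, had 8.43 and 8.70 CPM at 96 h and 3.96 and 3.78 CPM in DMSO (1.13, SE 0.217, adjusted p = 0.000838). The fall was ANKRD1, also a YAP target, at 1.40 and 1.97 CPM at 96 h and 6.53 and 6.74 CPM in DMSO (-2.01, SE 0.293, adjusted p = 4.61e-05). The rises came to 5 without replicate 1 of DMSO. In the BMP and TGF-beta pathway 4 of 24 rose (median 0.091). BMP3 had 16.9 and 12.8 CPM at 96 h and 5.13 and 4.02 CPM in DMSO (1.69, SE 0.215, adjusted p = 1.07e-05). BMP5 rose by 1.11, GREM1, a secreted BMP antagonist, by 0.63 and ID1, a BMP target, by 0.59 (SE 0.171, 0.0891 and 0.105). Of 30 Wnt pathway genes 5 rose and 2 fell (median 0.072), TLE4, a co-repressor, higher by 0.53 and the factor LEF1 and receptor FZD2 lower by 0.46 and 0.47. Without replicate 1 of DMSO or replicate 2 of 96 h the Wnt rises came to 2. Of 22 Notch and Hedgehog genes 2 rose and 2 fell (median -0.016), beside 6.14% higher and 6.86% lower over all genes tested.

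Developmental transcription factors outside the HOX clusters fell in 12 of 45 cases and rose in 4 (median -0.12). SIM2 (chr21:36699133-36749917), a bHLH-PAS factor of the developing midline, had 24.4 and 20.8 CPM at 96 h, against 63.5 and 71.5 CPM in DMSO (2.95-fold lower, log2 fold change -1.56, SE 0.119, adjusted p = 4.90e-09, edgeR). ISL2, a LIM homeodomain factor of motor neurons, had 4.68 and 4.35 CPM at 96 h, against 12.4 and 15.0 CPM in DMSO (2.98-fold lower, adjusted p = 5.82e-06). FOXF2, a forkhead factor of mesenchyme, had 35.9 and 43.8 CPM at 96 h and 64.7 and 75.4 CPM in DMSO (-0.82, SE 0.109). The homeobox genes UNCX (-1.11, SE 0.157) and LBX1 (-1.80, SE 0.285) fell too. For all 5 the 96 h libraries were below DMSO, and the call held without any 1 library.

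HOX genes, the clustered homeobox factors of body axis identity, moved mostly the other way, with 9 of 26 higher and 1 lower (median 0.23). HOXC12 (chr12:53954834-53958956) had 572 and 646 CPM at 96 h, against 336.5 and 408 CPM in DMSO (0.71 on the log2 scale, SE 0.0969, adjusted p = 2.25e-05, edgeR). HOXB4 had 44.5 and 51.5 CPM at 96 h and 27.5 and 29.2 CPM in DMSO (0.76, SE 0.11, adjusted p = 4.45e-05). Its neighbours HOXB5 and HOXB6 rose by 0.52 and 0.39 (SE 0.102 and 0.0911), and reads from these genes and the overlapping HOXB3 and HOXB-AS3 cannot be fully told apart. The gene that fell was HOXD12, at 1.87 and 2.25 CPM at 96 h and 5.05 and 5.32 CPM in DMSO (-1.34, SE 0.311, adjusted p = 0.00462). HOXD12 was named after its values were seen and lost its call without replicate 1 of 96 h (adjusted p = 0.0627). The rises came to 4 without replicate 1 of DMSO and to 5 without replicate 2 of 96 h.

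Neural genes were examined because synovial sarcoma expresses several of them. Of 29 genes of the neuronal cytoskeleton and synapse 7 rose and 2 fell (median 0.22). MAP2 (chr2:209424058-209734118), a microtubule protein of dendrites, had 89.4 and 90.9 CPM at 96 h, against 33.9 and 34.4 CPM in DMSO (2.64-fold, log2 fold change 1.40, SE 0.0967, adjusted p = 1.11e-09, edgeR). SEZ6L2, a relative of SEZ6, rose by 0.76 (SE 0.109), while SEZ6 fell by 1.76 (SE 0.197). Of 42 ion channel genes in the list 23 were tested, and of these 7 rose and 2 fell (median 0.57). ASIC4, a leading fall with a log2 fold change of -1.99, is not in this list. UNC80, of a sodium leak channel, had 10.8 and 8.98 CPM at 96 h and 3.65 and 4.02 CPM in DMSO (1.39, SE 0.203, adjusted p = 4.91e-05). SCN9A, a voltage-gated sodium channel of sensory neurons, had 12.6 and 13.9 CPM at 96 h and 5.985 and 4.965 CPM in DMSO (1.25, SE 0.186). KCNMA1, a potassium channel, fell by 0.93 (SE 0.156). Without replicate 1 of DMSO or replicate 2 of 96 h 4 channel rises were called.

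Axon guidance and adhesion molecules had the most rises of any list by count, 16 of 45, with 1 fall (median 0.18). Over all genes tested 6.14% were higher. The share that rose was larger in some smaller lists, such as YAP and serum response targets (8 of 16) and growth factors and receptors (10 of 23). SEMA3C, a secreted semaphorin, had 189 and 188 CPM at 96 h, against 99.7 and 97.8 CPM in DMSO (1.91-fold, log2 fold change 0.93, SE 0.0899, adjusted p = 2.49e-07, edgeR). ROBO2, a receptor for Slit proteins, had 75.0 and 78.0 CPM at 96 h, against 41.2 and 35.6 CPM in DMSO (0.99, SE 0.104, adjusted p = 7.35e-07). Its ligand SLIT2 had 630 and 721 CPM at 96 h, against 397 and 438 CPM in DMSO (0.69, SE 0.0869, adjusted p = 8.56e-06). Ligand and receptor were thus both higher, and the groups did not overlap. The fall was KIRREL3. The rises came to 10 without replicate 1 of DMSO and to 9 without replicate 2 of 96 h.

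Lysosome and autophagy genes rose in 9 of 32 cases and fell in 1, with a median of 0.20. None of these 10 calls held in every fit without 1 library, 18 genes had an unadjusted p under 0.05, and the edgeR rises came to 2 without replicate 1 of DMSO, to 4 without replicate 2 of 96 h and to 8 with DESeq2. CTSA, a lysosomal protease, had 207 and 212 CPM at 96 h and 147 and 170 CPM in DMSO (0.40 on the log2 scale, SE 0.0911, adjusted p = 0.00402), lost without replicate 1 of DMSO (adjusted p = 0.0572). RRAGD, a Rag GTPase of mTORC1 signalling, fell by 0.44 (SE 0.12), a call lost without replicate 1 of DMSO or replicate 2 of 96 h (largest adjusted p = 0.123). The CLEAR core TCACGTGA, a site of TFEB, was present in 5 of 22 members with a window (22.7%) and in 1.95% of all genes. Of 7 called members with a window CTSA held it, a smaller share than in the list as a whole. The core is shown in capitals in 100 bases of CTSA at chr20:45891263-45891362 (plus strand). In this sequence the E-box CACGTG lies inside that core and also before it, in lower case.
CTSA: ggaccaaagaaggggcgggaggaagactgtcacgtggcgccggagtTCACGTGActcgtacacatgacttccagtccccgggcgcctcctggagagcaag

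Immune, lineage and marker lists were counted beside a share of 13% called over all genes tested, 6.14% higher and 6.86% lower. Of 28 interferon and MHC class I genes 2 rose and 1 fell (median 0.18). STAT2, a transcription factor of the interferon response, had 131 and 120 CPM at 96 h and 88.3 and 93.5 CPM in DMSO (0.47 on the log2 scale, SE 0.0921, adjusted p = 0.00114, edgeR). Of 18 synovial sarcoma markers 3 rose and 2 fell (median 0.10). Of 16 immediate early genes 2 rose and 1 fell (median 0.051), none kept without each library. Of 6 osteochondrogenic genes COMP, a cartilage matrix protein, rose 2.12-fold (adjusted p = 0.00289). edgeR, DESeq2 and limma-voom each called 0 of 5 inflammatory, 5 adipogenic, 2 myogenic and 3 cancer-testis genes, and at an unadjusted p under 0.05 there was 1 among the inflammatory genes and 0 in the other 3 lists. MAGEA4 and PRAME, cancer-testis antigens, had log2 fold changes of -0.10 and -0.01 (adjusted p = 0.530 and 0.970).

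The 96 h libraries were also set against the mean of 12, 24 and 48 h, to ask which transcripts differed at the longest exposure. This comparison takes no level from DMSO but shares the 96 h libraries with the first comparison. The labels give no DMSO group for each time and do not say whether time in culture differed along with exposure. Exposure and time in culture therefore cannot be told apart here. At 96 h 316 genes were called higher by edgeR and 173 lower, 2.98% of those tested, 1.93% and 1.06%. Against 48 h alone 6 genes were called (0.0366%), named after their values were seen, with AMOTL2, CYFIP2 and CDH23 higher and SCD, RRAGD and NEAT1 lower at 96 h.

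MUC6 had 206 and 222 CPM in DMSO, then 218 and 202 (12 h), 363 and 294 (24 h), 613 and 580 (48 h) and 715 and 906 (96 h) (96 h against the mean of the earlier times 1.23 on the log2 scale, SE 0.08, adjusted p = 2.75e-09, edgeR). Its first 2 groups overlapped and each later group was above the one before. CDH23, a cadherin best known from the tip links of hair cells, had 27.9 and 32.0 CPM in DMSO, then 26.8 and 21.9 (12 h), 27.0 and 24.8 (24 h), 39.9 and 42.1 (48 h) and 64.5 and 61.0 (96 h) (1.09, SE 0.09, adjusted p = 9.05e-08). EDAR, the ectodysplasin receptor, had 7.77 and 9.54 CPM at 96 h, against 3.22 to 6.01 CPM in the 12, 24 and 48 h libraries and 4.20 and 3.19 CPM in DMSO (1.07, adjusted p = 0.00212). CDH23 and EDAR were named because they passed this same comparison. PRR36, MATN2 and NGFR were higher at 96 h than over the earlier times by 1.72, 1.17 and 1.10 (SE 0.17, 0.12 and 0.17). Against 48 h alone CDH23 passed the edgeR test, while MUC6, EDAR, PRR36, MATN2 and NGFR did not.

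Among the falls SIM2 had 63.5 and 71.5 CPM in DMSO, then 45.1 and 39.8 (12 h), 42.8 and 38.2 (24 h), 37.6 and 33.4 (48 h) and 24.4 and 20.8 (96 h) (96 h against the mean of the earlier times -0.79, SE 0.11, adjusted p = 0.000143, edgeR). DDIT4 had 38.9 and 51.2 CPM in DMSO, then 19.3 and 24.5 (12 h), 21.4 and 20.5 (24 h), 21.5 and 16.3 (48 h) and 11.3 and 10.8 (96 h) (-0.89, SE 0.15, adjusted p = 0.00165). In both genes the 96 h libraries were the lowest of the 10, but neither gene passed the edgeR test against 48 h alone. SCD did not follow one direction, at 2314 and 2222 CPM in DMSO, then 1413 and 1130 (12 h), 1661 and 1668 (24 h), 2221 and 1921 (48 h) and 1244 and 1165 (96 h). MYC, by contrast, was already at 144 and 136 CPM at 12 h, and its 96 h level did not pass the test against the earlier times (-0.13, adjusted p = 0.524). PCAT14 likewise gave -0.18 (adjusted p = 0.542).

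Ribosomal protein genes stood out by count in this comparison, with 35 of 77 lower at 96 h than over the earlier times (median -0.26). RPS18 had 1040 and 993 CPM in DMSO, then 1002 and 982 (12 h), 785 and 817 (24 h), 804 and 758 (48 h) and 596 and 606 (96 h). Histones were lower in 8 of 21 cases and glycolysis genes in 9 of 29, while 11 of 45 axon guidance genes, 7 of 30 Wnt genes and 6 of 26 HOX genes were higher. MYC and ribosome biogenesis genes were lower in 1 of 32 cases. This count of calls depended on single libraries more than the one against DMSO: it ranged from 117 to 541 higher and 87 to 422 lower genes as each library was left out. It came to 117 and 95 without replicate 2 of 96 h, to 541 and 421 without replicate 1 of DMSO and to 534 and 422 without replicate 2 of DMSO, whose spread enters the shared estimate.

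**Figure D4:**
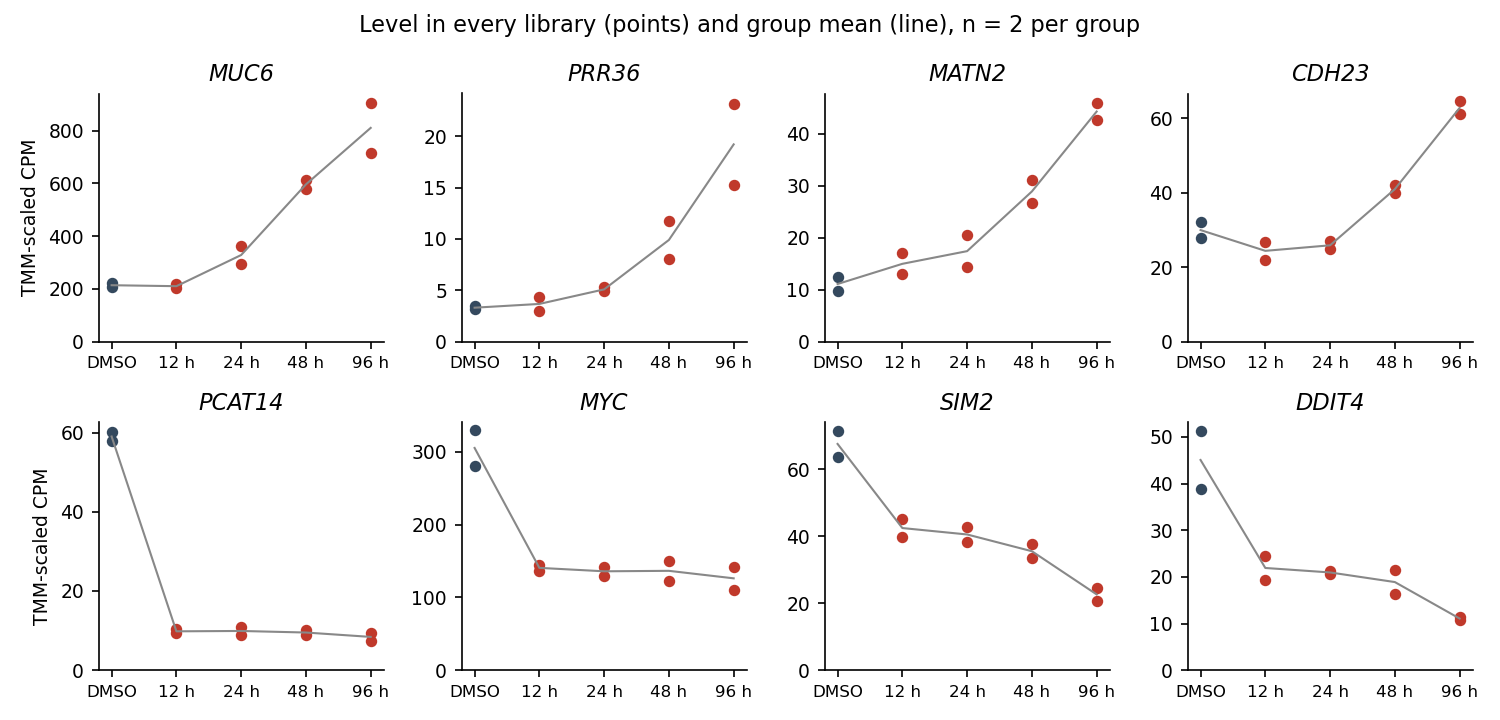
TMM-scaled CPM in each library (points) and the group mean (line) for MUC6, PRR36, MATN2 and CDH23 in the upper row and PCAT14, MYC, SIM2 and DDIT4 in the lower row, with DMSO in dark blue, WA-68 at 12, 24, 48 and 96 h in red and n = 2 per group. The upper genes are highest at 96 h, PCAT14 and MYC are near their 96 h level from 12 h on, and SIM2 and DDIT4 are lower at 96 h than at the earlier times.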

How the data were processed

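The authors deposited 1 table of raw counts, whole numbers of reads per gene with no normalization, for 63140 gene identifiers in 10 libraries, and all sample columns were used. Per the labels, libraries were stranded poly(A) mRNA libraries read as paired ends. The submitters' processing notes name bcl2fastq, FastQC, Trim Galore with cutadapt, STAR, featureCounts and GRCh38; the sources used here do not state tool versions, the gene annotation, whether counting used strand, or what was done with multi-mapping reads.

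From these counts, symbols were found for 62541 identifiers and GENCODE positions (GRCh38) for 58126. Genes kept by edgeR's filterByExpr per group, 16382 of them, were scaled by TMM and fitted in edgeR 4.0.16 (R 4.3.3) with 1 mean per group over all 10 libraries and no other term, which left 5 residual and 18.5 prior degrees of freedom and a biological coefficient of variation of 7.17%. Quasi-likelihood F tests compared 96 h with DMSO and with the mean of 12, 24 and 48 h. Calls were made where the Benjamini-Hochberg adjusted p over all genes was under 0.05, and the SE is the log2 fold change over the square root of F. With 2 replicates per group p-values rest on the spread of samples labelled biological replicates, all of 1 line.

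The comparison, the 46 gene lists and the naming rule were chosen with earlier results of these data known, so no list count is independent evidence. List counts and medians are over the members with enough counts to be tested. Named by rule are 5 core genes (BRD9, BICRAL, BICRA, SSX1 and SS18), the 12 largest rises and 12 largest falls with a mean of at least 5 CPM and groups that do not overlap, 8 of each against the earlier times, and up to 4 members of each list by adjusted p (the 2 most abundant where none was called). Of the 167 genes so named 150 were called and 111 kept their call without each of the 10 libraries in turn. Not all are reported here, and genes outside the rule are marked in the text or given as members of a list with their values. Alternatives were RLE scaling, library size only, no filter, a filter of 5 CPM in 2 libraries, DESeq2 1.42.0, limma-voom (limma 3.58.1), an adjusted p under 0.01, a 2-fold limit, a replicate block, an offset for the lowess trend (span 0.3) of log2 CPM with transcript GC content, known for 95.8% of tested genes, the 4 libraries alone, each library left out and, chosen after the GC trend was seen, replicate 2 of both groups left out. Sequences are RefSeq promoter windows of GRCh38.p14, available for 10803 tested genes.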

Additional observations from a re-analysis of the deposited data

Results flagged for a closer look

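Among the genes named by fold or by core role and reported here, 20 had a 96 h effect that differed from the mean effect of 12, 24 and 48 h, tested directly in edgeR as 96 h minus that mean, with Benjamini-Hochberg adjusted p over all genes. Higher at 96 h than over the earlier times, on the log2 scale, were PRR36 by 1.717 (adjusted p = 2.72e-06), CYFIP2 by 1.546 (9.71e-05), MUC6 by 1.23 (2.75e-09), MATN2 by 1.171 (2.72e-06) and NGFR by 1.097 (0.00103). So were CDH23 by 1.089 (9.05e-08), EDAR by 1.07 (0.00212), MEGF11 by 1.034 (0.00372), NPIPB5 by 1.014 (0.000383) and BRINP2 by 0.8837 (5.52e-06). COL5A3 by 0.7228 (0.0284) and MYH11 by 0.6816 (0.00178) complete the rises. Lower at 96 h were ISL2, which fell by 0.9846 (0.00269), DDIT4, which fell by 0.887 (0.00165), ASIC4, which fell by 0.8355 (0.0214), and CCDC26, which fell by 0.8338 (0.0284). SIM2 fell by 0.7864 (0.000143), CYP51A1 fell by 0.7323 (0.00952), TMEM160 fell by 0.7175 (0.0176) and SNORD3B-2 fell by 0.7119 (0.00137). CDH23, EDAR, NPIPB5, CYP51A1, TMEM160 and SNORD3B-2 were named because they passed this same test, so their passing was fixed by the choice. The other genes were named against DMSO, a comparison that uses the same 96 h libraries. Against 48 h alone CYFIP2 and CDH23 passed the edgeR test among these genes, and the others did not.

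Without 1 library some of these calls were lost. COL5A3 and CCDC26 lost theirs without replicate 2 of 12 h, replicate 1 of 24 h, replicate 2 of 48 h or either 96 h library (largest adjusted p = 0.127 and 0.160), and ASIC4 without replicate 1 of 12 h or either 96 h library (0.133). MEGF11 and CYP51A1 lost theirs without replicate 2 of 96 h (0.153 and 0.180), and TMEM160 without that library or replicate 1 of 12 h (0.170). The other 14 kept their call in each of the 10 fits. NPIPB5 and SNORD3B-2 have near-identical copies in the genome, so their counts are uncertain. In NPIPB5 replicate 1 of 96 h, with 26.5 CPM, lay close to replicate 1 of DMSO, with 26.3 CPM.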

How the results depend on the processing

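Counts of called genes are given as higher and lower at 96 h. Against DMSO, with 1006 and 1123 called, an adjusted p under 0.01 left 542 and 591 and a 2-fold limit 210 and 94. The GC offset gave 1592 and 1665, and 1553 and 1640 with the replicate block as well. The 4 libraries alone gave 689 and 577, with the replicate block 1610 and 1621, and with GC offset and replicate block 1805 and 1884. Leaving out each library gave 685 to 1154 and 847 to 1309. Against the earlier times, with 316 and 173, the stricter p left 115 and 54, the 2-fold limit 24 and 5, no filter gave 267 lower, the GC offset 623 and 459, GC offset with replicate block 607 and 461, and leaving out replicate 2 of both groups 273 lower. Leaving out each library gave 117 to 541 and 87 to 422. Of the 29 core and leading genes refitted under each alternative, 1 changed sign: BICRA, not called in either fit, had a log2 fold change of -0.038 without replicate 1 of DMSO, against 0.15 with all libraries and up to 0.34 without replicate 2 of DMSO.

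DMSO and 96 h share 2 replicate numbers, and the labels do not say that a number marks a shared batch. The deviations of their same-numbered libraries had a correlation of 0.186, against -0.12 to 0.041 in the other 9 pairs of groups, and both replicate 2 libraries stood apart. Over all 10 libraries the replicate block gave 960 and 1071 genes against DMSO and 285 and 157 against the earlier times.

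In lists, library size only left 8 of 13 falls in G1/S and 5 of 10 in G2/M. The GC offset gave 20 G2/M falls, 10 in cholesterol and fatty acid synthesis, 16 lysosome rises and 12 neuronal rises. Leaving out each library gave 6 to 12 G1/S falls, 6 to 16 G2/M falls, 2 to 8 lysosome rises, 3 to 6 falls among other matrix genes, 5 to 7 rises of YAP targets, 6 to 10 of growth factors and receptors, 2 to 7 of Wnt genes, 4 to 11 of HOX genes, 4 to 9 of ion channels, 9 to 16 of axon guidance genes, and 10 to 19 histone falls. The cause was not tested. Where a group is left with 1 library, that library is assumed to vary like the other groups. Genes of a few CPM are limited by depth.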
